A study of Saccharomyces cerevisiae with 12 samples.

Results

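The genes described here encode the enzymes of purine synthesis in the budding yeast Saccharomyces cerevisiae. They are the 10 rows of the deposited array table, of 6212 in all, that carry the systematic names of ADE1, ADE2, ADE4, ADE5,7, ADE6, ADE8, ADE12, ADE13, ADE16 and ADE17. The rule picks rows by these names, without their values, although the set was drawn up with earlier results of these data known. A value on all 12 arrays was present for 9 of the 10 genes, ADE4 being the exception.

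Cells build purines step by step on phosphoribosyl pyrophosphate (PRPP), an activated sugar, until the base of inosine monophosphate (IMP) is complete. Ade4 catalyses the first committed step, and Ade5,7, Ade8, Ade6, Ade2, Ade1, Ade13 and the isozymes Ade16 and Ade17 carry the intermediates on to IMP. Ade12 and again Ade13 turn IMP into AMP, while the IMD enzymes and Gua1 turn it into GMP. In yeast, the transcription factors Bas1 and Pho2 activate the ADE genes together, and the general amino acid control factor Gcn4 also acts on several of them. Snf1 is the yeast relative of the AMP-activated protein kinase, and cells need it to use carbon sources other than glucose.

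RNA of a treated and a control culture of the same strain was labelled with Cy3 and Cy5 and hybridised together on each two-colour array, so a value is a ratio within one strain and not a level. The snf1 mutant at pH 8.0 (snf1::KanMX in strain DBY4741, 4 arrays) and the wild type at pH 8.0 (DBY4741, 4 arrays) were grown in YPD at 28 °C and given 16 mM KOH for 10 min, against 16 mM KCl, which left the medium near pH 5.5. The snf1 mutant at low glucose (strain DBY746, 2 arrays) and the wild type at low glucose (DBY746, 2 arrays) were sedimented, washed and resuspended for 15 min in fresh YP with 0.05% glucose, against 2% glucose. Both genotypes of a treatment thus share the strain and the handling, while the strain label changes with the treatment, so strain and treatment cannot be told apart in any comparison between the treatments. The genotype field of snf1 replicate 1 at pH 8.0 reads snf11::KanMX, although its title says snf1. At low glucose the genotype is given as snf1 mutant only. The labels do not say whether replicates are separate cultures. The p-values therefore measure the spread between arrays, which may be technical.

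Each value is the log2 of treated over control, and means carry the SD over arrays. Neither the base nor the direction is stated in the sources used here, and both are taken as likely, the direction from the order of the titles. Adjusted p-values are those of limma after Benjamini-Hochberg adjustment over all genes tested in a comparison, and a gene was called higher or lower when its adjusted p was under 0.05. Arrays held 4056 to 5597 genes with a value, and array medians lay between -0.07 and 0.11. The SNF1 row had a value on 2 arrays only, and since both channels of an array come from one strain it cannot check the genotype. SUC2 had 0.55, 0.19, 0.87 and 0.38 on the 4 snf1 arrays at pH 8.0, against 2.465 to 3.12 on the wild type arrays. HXT7 had -0.46, 0.01, 0.14 and -0.09, against 2.74 to 3.08 on the wild type arrays with a value. In both genes all 4 snf1 arrays thus lay under every wild type value. Whether an array is mislabelled was not tested.

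The arrays of snf1 at pH 8.0 did not form one group. Across all genes, replicates 1 and 2 correlated with a Pearson coefficient of 0.901 and replicates 3 and 4 with 0.837, while arrays from different pairs correlated at 0.683 to 0.742. The 4 wild type arrays at pH 8.0 correlated at 0.807 to 0.936, although the values of replicates 3 and 4 are given to 2 decimals and all other arrays to 3. The labels name no batch that sets these pairs apart. Results at pH 8.0 are therefore given for all arrays and also for each pair of arrays, a split added after the data were seen.

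At pH 8.0, 6 of the 10 purine genes rose in the wild type, led by ADE2 and ADE17. In snf1, 2 of 10 genes were called higher, ADE2 and ADE16, and 0 lower, where 21.7% of 4591 genes were called higher and 26.2% lower. In the wild type, 6 of 10 genes were called higher and 0 lower, where 25.6% of 4979 genes were called higher and 30% lower. The median over the 10 genes was 0.25 in snf1 and 0.43 in the wild type, beside -0.04 and -0.05 over all genes tested. The snf1 median was 0.50, 0.40, 0.10 and 0.09 without replicate 1, 2, 3 and 4 in turn, 0.61 without replicates 1 and 2 and -0.24 without replicates 3 and 4, so its sign depended on the pair of arrays used. The other 4 genes in the wild type had adjusted p-values of 0.0918 (ADE4), 0.116 (ADE12), 0.806 (ADE6) and 0.821 (ADE1) with limma.

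**Figure D1:**
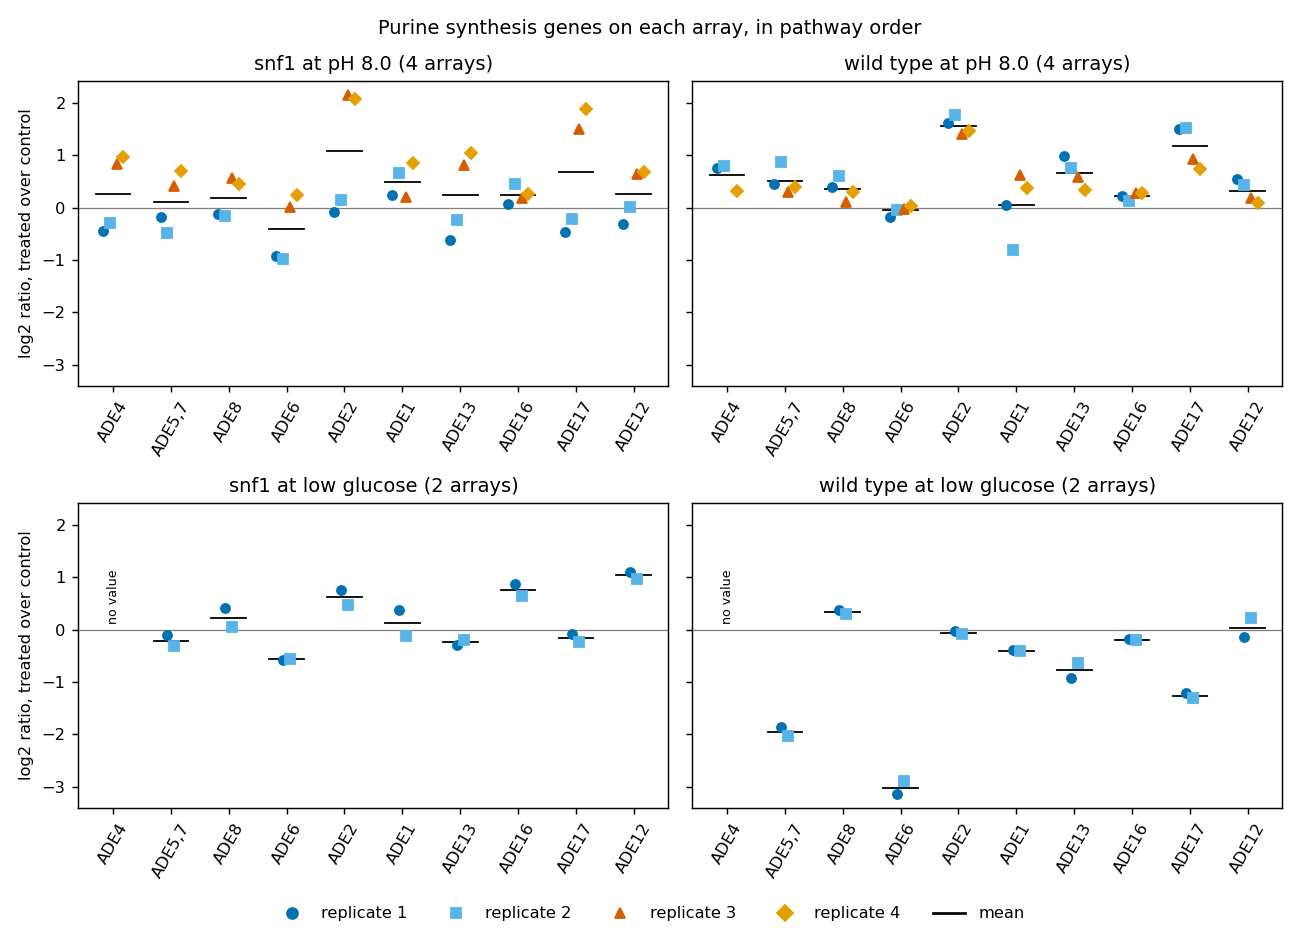
Each point is the log2 ratio of treated over control (vertical axis) of 1 purine gene on 1 array, in panels by group, with genes in the order of the pathway and a bar at the mean. In snf1 at pH 8.0 the replicates 3 and 4 of ADE2 lie at 2.15 and 2.07, far above replicates 1 and 2 at -0.08 and 0.14, and in the wild type at low glucose ADE6 lies near -3.

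ADE2 (YOR128C) encodes the carboxylase whose loss turns yeast colonies red. It had -0.08, 0.14, 2.15 and 2.07 on the 4 snf1 arrays at pH 8.0, against 1.62, 1.78, 1.40 and 1.47 on the wild type arrays. The snf1 arrays fell on both sides of the wild type range, with replicates 1 and 2 near 0 and replicates 3 and 4 above every wild type array. Its mean was 1.07 ± 1.20 in snf1, 2.10-fold with an adjusted p of 0.016 by limma, and 1.57 ± 0.17 in the wild type, 2.96-fold with an adjusted p of 0.0015 (SD, n = 4 each). The call in snf1 was lost without replicate 3 (adjusted p = 0.109) and without replicate 4 (adjusted p = 0.117).

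ADE17 (YMR120C) encodes one of the isozymes that perform the last steps to IMP. It had -0.47, -0.21, 1.49 and 1.88 on the snf1 arrays at pH 8.0, against 1.50, 1.53, 0.93 and 0.74 on the wild type arrays. All 4 wild type arrays were above 0, while snf1 was below 0 on replicates 1 and 2, within the wild type range on replicate 3 and above it on replicate 4. The mean was 0.67 ± 1.19 in snf1 (adjusted p = 0.112, limma) and 1.17 ± 0.40 in the wild type (adjusted p = 0.00993, limma), 2.26-fold in the wild type. ADE16 (YLR028C), the gene of the other isozyme, moved little at pH 8.0, with 0.07, 0.45, 0.19 and 0.25 on the snf1 arrays and 0.23, 0.13, 0.27 and 0.28 on the wild type arrays. It was called higher in both genotypes, with adjusted p-values of 0.0428 in snf1 and 0.0484 in the wild type by limma, at 1.18-fold and 1.17-fold. The ADE16 call in snf1 was lost without replicate 2, 3 or 4 (adjusted p = 0.236, 0.0511 and 0.0983, limma). ADE17 was called higher in snf1 without replicate 1 (1.11, adjusted p = 0.0182) and without replicate 2 (1.00, adjusted p = 0.0435). ADE17 minus ADE16 was -0.54, -0.66, 1.30 and 1.62 on the snf1 arrays at pH 8.0 and 1.28, 1.39, 0.66 and 0.46 on the wild type arrays. ADE17 thus exceeded ADE16 on every wild type array and on snf1 replicates 3 and 4, and lay under it on snf1 replicates 1 and 2. The difference between these genes was not tested.

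Of the enzymes early in the pathway, ADE4 (YMR300C) encodes the PRPP amidotransferase. ADE4 had -0.46, -0.29, 0.84 and 0.97 on the snf1 arrays at pH 8.0, against 0.76, 0.79 and 0.32 on wild type replicates 1, 2 and 4. No wild type replicate 3 value and no low glucose value was present for ADE4, so it entered only the comparisons at pH 8.0. ADE5,7 (YGL234W), the gene of a protein with separate synthetase activities before and after the Ade6 step, had -0.18, -0.49, 0.42 and 0.70 on the snf1 arrays and 0.46, 0.87, 0.30 and 0.39 on the wild type arrays. Its wild type mean of 0.50 ± 0.25 was called higher (adjusted p = 0.0187, limma). ADE8 (YDR408C), which encodes the first formyl transferase, had 0.19 ± 0.38 in snf1 and 0.35 ± 0.21 in the wild type, called higher in the wild type with an adjusted p of 0.0439 (limma). ADE6 (YGR061C), the gene of the FGAM synthetase, which takes nitrogen from glutamine, was the lowest purine gene at pH 8.0. It had -0.92, -0.98, 0.01 and 0.23 on the snf1 arrays and -0.18, -0.05, -0.02 and 0.03 on the wild type arrays. ADE6 was not called in either genotype with all arrays, at an adjusted p of 0.0761 in snf1 and 0.806 in the wild type, but was called lower in snf1 without replicate 3 (-0.58) and without replicate 4 (-0.65).

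Among the later enzymes, ADE13 (YLR359W) encodes adenylosuccinate lyase, which serves both the route to IMP and the AMP branch. It had -0.62, -0.24, 0.82 and 1.04 on the snf1 arrays, against 0.99, 0.76, 0.58 and 0.33 on the wild type arrays. Its wild type mean of 0.66 ± 0.28 was called higher (adjusted p = 0.0275, limma), and its snf1 mean of 0.25 ± 0.81 was not (adjusted p = 0.392). ADE12 (YNL220W), the gene of adenylosuccinate synthase at the entry to the AMP branch, had 0.26 ± 0.49 in snf1 and 0.31 ± 0.22 in the wild type, and was called in neither with all arrays, but was called higher in snf1 without replicate 1 (0.45, adjusted p = 0.047). ADE1 (YAR015W), the gene of the succinocarboxamide synthetase just after Ade2, behaved unlike its neighbours in the pathway. It was above 0 on all 4 snf1 arrays (0.20 to 0.85) and on 3 of 4 wild type arrays, where replicate 2 was at -0.81.

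The wild type count at pH 8.0 changed when arrays were left out. It was 2 of 10 (ADE2 and ADE17) without wild type replicate 1, where 21.1% of genes were called higher, and 1 of 10 without replicate 2, where 21.7% were, so neither count was above the share of all genes. It was 4 of 10 without replicate 3, where 20.5% of genes were called higher, and without replicate 4, where 19.1% were, with ADE2, ADE5,7, ADE13 and ADE17 called both times. The smallest effects called with all arrays, those of ADE8 and ADE16, were lost without any single wild type array, with adjusted p-values of 0.0521 to 0.166 for ADE8 and 0.066 to 0.169 for ADE16 (limma). ADE17 was lost without replicate 2 only (1.05, adjusted p = 0.0511). It was 1 of 9 without replicates 1 and 2, where 19.4% of genes were called higher, and 3 of 10 without replicates 3 and 4, where 16.1% were. ADE2 was among the called genes in each of these fits.

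No purine gene was called different between the genotypes at pH 8.0 when all arrays were used. For snf1 minus wild type, 0 of 10 genes were called by limma, where 1.16% of 4380 genes were called. Without adjustment 0 of the 10 had a p under 0.05 (limma), and the share of all genes under that threshold was not computed. The estimates ran from -0.50 for ADE17 to 0.43 for ADE1, with a median of -0.36 against 0.00 over all genes. With 1 array left out the median was -0.04 without snf1 replicate 1, -0.15 without snf1 replicate 2, -0.53 without snf1 replicate 3 and -0.58 without snf1 replicate 4, and -0.41 to -0.29 without a wild type array. The 95% interval of ADE17 ran from -1.52 to 0.51 and that of ADE2 from -1.48 to 0.49, so differences of more than 1 log2 unit in the negative direction lie within these intervals. Every array of snf1 above or every array below the wild type was seen for 0 of the 9 genes with complete values, where 3.71% of 3723 genes were above and 4.3% below.

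The split within snf1 was wide for these genes. Replicates 3 and 4 lay both above replicates 1 and 2 for 8 of the 10 genes, all but ADE1 and ADE16, where 24.1% of 4005 genes with complete values did so, and both below for 0, where 26% did. The mean of replicates 3 and 4 minus that of replicates 1 and 2 had a median of 0.98 over the purine genes, beside 0.00 over all genes, and exceeded 1 for 5 of the 10 genes, where 1.8% of all genes did. It was 2.08 for ADE2, 2.03 for ADE17, 1.36 for ADE13, 1.28 for ADE4 and 1.07 for ADE6. For ADE2, 99.8% of all genes had a smaller value. In the wild type the same quantity had a median of -0.30 over 9 purine genes and exceeded 1 for 0 of them, where it did so for 1.32% of 4534 genes. The wild type pairs also separated, by less. Replicates 3 and 4 lay both below replicates 1 and 2 for 6 of the 9 genes, where 17.7% of genes did, and both above for the other 3, ADE1, ADE6 and ADE16, where 22.4% did. The wild type differences ran from -0.68 to 0.88. Whether the split differed between the genotypes was not tested.

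Fits with 1 pair of snf1 arrays left out gave opposite pictures. Without replicates 1 and 2, 7 of 10 purine genes were called higher in snf1 at pH 8.0 (ADE2, ADE4, ADE5,7, ADE8, ADE12, ADE13 and ADE17), where 14.1% of genes were. Without replicates 3 and 4, 0 were called higher and 2 were called lower, ADE6 at -0.95 and ADE13 at -0.43, where 20.2% of genes were called higher and 25.2% lower. For snf1 minus wild type, leaving out snf1 replicates 3 and 4 gave 6 of 10 genes called lower, where 3.77% of 4219 genes were called lower and 5.64% higher. These were ADE2 (-1.53, adjusted p = 0.00144), ADE17 (-1.52, adjusted p = 0.00559), ADE13 (-1.10, adjusted p = 0.00559), ADE4 (-1.03, adjusted p = 0.028), ADE6 (-0.89, adjusted p = 0.00446) and ADE5,7 (-0.83, adjusted p = 0.0124), all by limma. Leaving out snf1 replicates 1 and 2 gave 0 of 10 calls, where 0.378% of 4500 genes were called higher and 1.04% lower, and a median difference of 0.27. The pairs were set apart after the data were seen, and leaving 1 out takes the spread between the snf1 pairs out of the fit. The p-values of these fits therefore do not measure that spread. With consecutive arrays averaged, which keeps it, 0 of 4449 genes were called for snf1 minus wild type at pH 8.0. That averaged fit has only 2 values per genotype at pH 8.0 and called no gene at all. It therefore cannot show whether the purine genes differ. What sets the pairs of arrays apart was not tested.

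**Figure D2:**
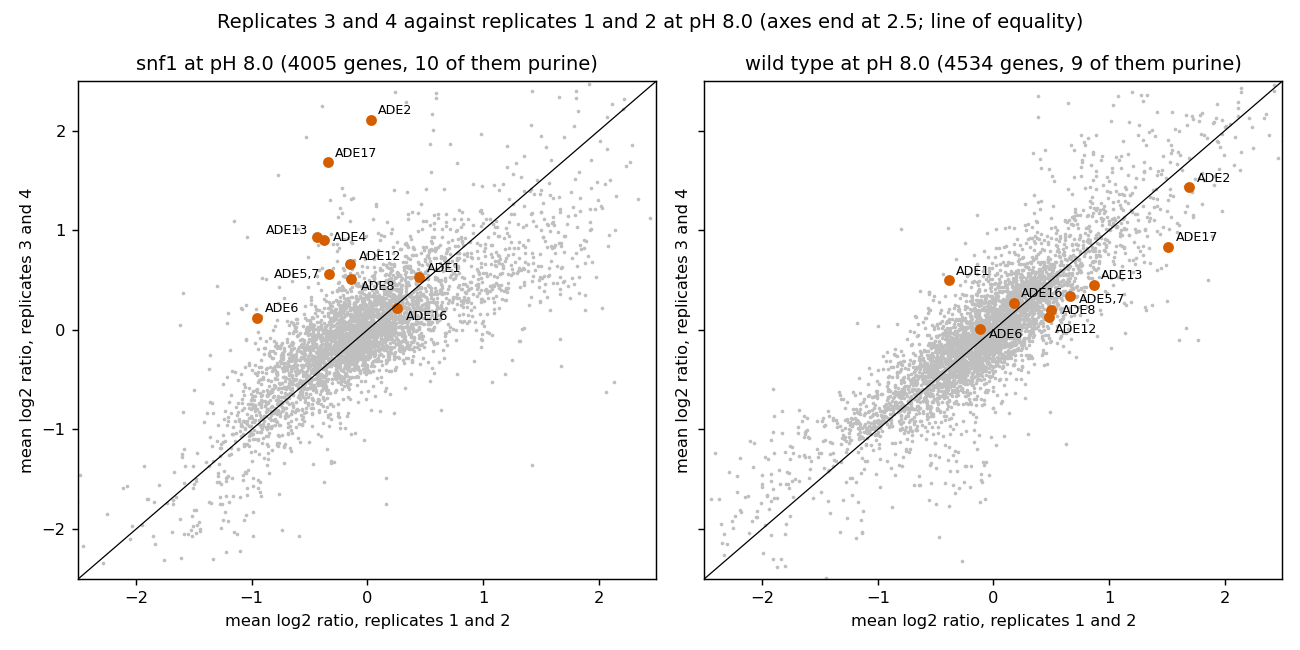
Each point is a gene, with the mean log2 ratio of replicates 1 and 2 on the horizontal axis and that of replicates 3 and 4 on the vertical axis, for snf1 (left) and the wild type (right) at pH 8.0. Purine genes are named in orange and all other genes are grey. ADE2, ADE17, ADE13 and ADE4 lie far above the line of equality in snf1, by 2.08, 2.03, 1.36 and 1.28, while in the wild type no purine gene lies more than 1 log2 unit from it.

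At low glucose ADE6, ADE5,7 and ADE17 fell in the wild type, ADE6 and ADE5,7 most, and none of these was called in snf1 when all arrays shared one spread. With only the low glucose arrays in the fit, ADE6 was also called lower in snf1 (-0.57, adjusted p = 0.000564, limma). That fit has 2 arrays per genotype and a dye term, so it holds little of each gene's own spread. For the purine genes newly called in it, the p-values followed the size of the change and not the SD over arrays. They are therefore no measure of that spread. With all arrays in the fit, 2 of 9 genes were called higher in snf1, ADE12 and ADE16, and 0 lower. Of 3703 genes, 28.9% were called higher and 16.9% lower. In the wild type, 3 of 9 genes were called lower, ADE6, ADE5,7 and ADE17, and 0 higher, where 31.5% of 5225 genes were called lower and 33.7% higher. The median over the 9 genes was 0.13 in snf1 and -0.41 in the wild type, beside 0.12 and 0.05 over all genes. One array set the sign of the snf1 median, which was -0.19 without replicate 1 and 0.37 without replicate 2. The shares called higher in snf1 and lower in the wild type were thus near those of all genes, while ADE6 and ADE5,7 had the largest changes among the purine genes of the wild type.

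ADE6 had -0.58 and -0.57 on the snf1 arrays at low glucose, against -3.15 and -2.90 on the wild type arrays. The groups did not overlap, and the wild type mean of -3.02 ± 0.17 was an 8.13-fold fall (adjusted p = 1.37e-06, limma). The snf1 mean of -0.57 ± 0.01 was not called (adjusted p = 0.0864). ADE5,7 had -0.10 and -0.32 in snf1, against -1.86 and -2.04 in the wild type. It fell 3.87-fold in the wild type (adjusted p = 1.56e-05, limma), and its snf1 mean of -0.21 ± 0.15 was not called (adjusted p = 0.473). ADE17 had -0.08 and -0.24 in snf1, against -1.21 and -1.31 in the wild type, 2.40-fold lower in the wild type (adjusted p = 0.0311, limma). This call was lost without wild type replicate 1 (adjusted p = 0.161), without replicate 2 (adjusted p = 0.191) and with the arrays scaled to one spread (-0.79, adjusted p = 0.291). ADE13 had -0.29 and -0.20 in snf1, against -0.92 and -0.63 in the wild type, where it missed the threshold (adjusted p = 0.0516). With only the low glucose arrays in the fit, ADE13 was called lower in the wild type (-0.78, adjusted p = 9.84e-07, limma). The limit of that fit given above holds here too, so this p-value does not measure the spread of ADE13 between arrays.

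The genes called higher in snf1 were ADE16 and ADE12. ADE16 had 0.86 and 0.63 in snf1, against -0.19 and -0.19 in the wild type, and was called higher in snf1 at 1.68-fold (adjusted p = 0.000648, limma). ADE12 had 1.10 and 0.97 in snf1, against -0.14 and 0.22 in the wild type, and was called higher in snf1 at 2.06-fold (adjusted p = 0.00265, limma). The ADE12 call in snf1 was lost without snf1 replicate 1 (0.89, adjusted p = 0.0937). ADE17 minus ADE16 was -0.94 and -0.87 on the snf1 arrays and -1.02 and -1.11 on the wild type arrays, so at low glucose ADE17 was under ADE16 in both genotypes. ADE2 had 0.75 and 0.48 in snf1 and -0.03 and -0.09 in the wild type, and ADE8 had 0.41 and 0.04 in snf1 and 0.38 and 0.30 in the wild type. Neither ADE2, ADE8 nor ADE1 (0.38 and -0.13 in snf1, -0.40 and -0.42 in the wild type) was called in either genotype when all arrays shared one spread. With only the low glucose arrays in the fit, ADE2 was called higher in snf1 (adjusted p = 0.000188, limma). In the wild type ADE8 was then called higher (adjusted p = 0.0375) and ADE1 lower (adjusted p = 0.0115). These p-values too followed the size of the change and not the SD of each gene.

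The test of the difference at low glucose, snf1 minus wild type, called 4 of 9 purine genes higher and 0 lower, where 27.6% of 3651 genes were called higher and 13% lower. The difference was 2.45 for ADE6 (95% interval 1.67 to 3.24, adjusted p = 0.000342, limma) and 1.74 for ADE5,7 (1.04 to 2.44, adjusted p = 0.00129). It was 1.00 for ADE12 (adjusted p = 0.0231) and 0.94 for ADE16 (adjusted p = 0.00159). ADE17 differed by 1.10 with an interval of -0.33 to 2.53 (adjusted p = 0.202). That interval rests on the spread of all 12 arrays, which include the split snf1 arrays at pH 8.0. The SD of ADE17 was 1.19 there, against 0.11 in snf1 and 0.07 in the wild type at low glucose. Whether the split sets the width of this interval was not tested. With only the low glucose arrays, 8 of 9 genes were called higher, where 34.3% of 3651 genes were. ADE17 (1.10, adjusted p = 1.91e-06), ADE2 (0.68, adjusted p = 0.00465) and ADE13 (0.53, adjusted p = 0.0294, all limma) were among them. These p-values followed the size of the difference and not the SD of each gene. The call of ADE17 in that fit therefore does not rest on its small SD at low glucose. Both snf1 arrays lay above both wild type arrays for 8 of the 9 genes, all but ADE8, where 45.6% of genes did. The median difference was 0.94 over the purine genes and 0.18 over all genes tested.

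These differences depend in part on how the arrays are scaled. The SD over all genes was 0.791 and 0.741 on the snf1 arrays at low glucose, against 1.13 and 1.17 on the wild type arrays. When all arrays were scaled to one spread, 1 of 9 genes was called, ADE16, where 10.9% of genes were called higher. The difference was then 1.32 for ADE6 (adjusted p = 0.0511) and 1.00 for ADE5,7 (adjusted p = 0.0979), both still higher in snf1. The ADE12 call was lost in each of the 4 fits that left out 1 low glucose array, with adjusted p-values of 0.055 to 0.156 (limma).

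**Figure D3:**
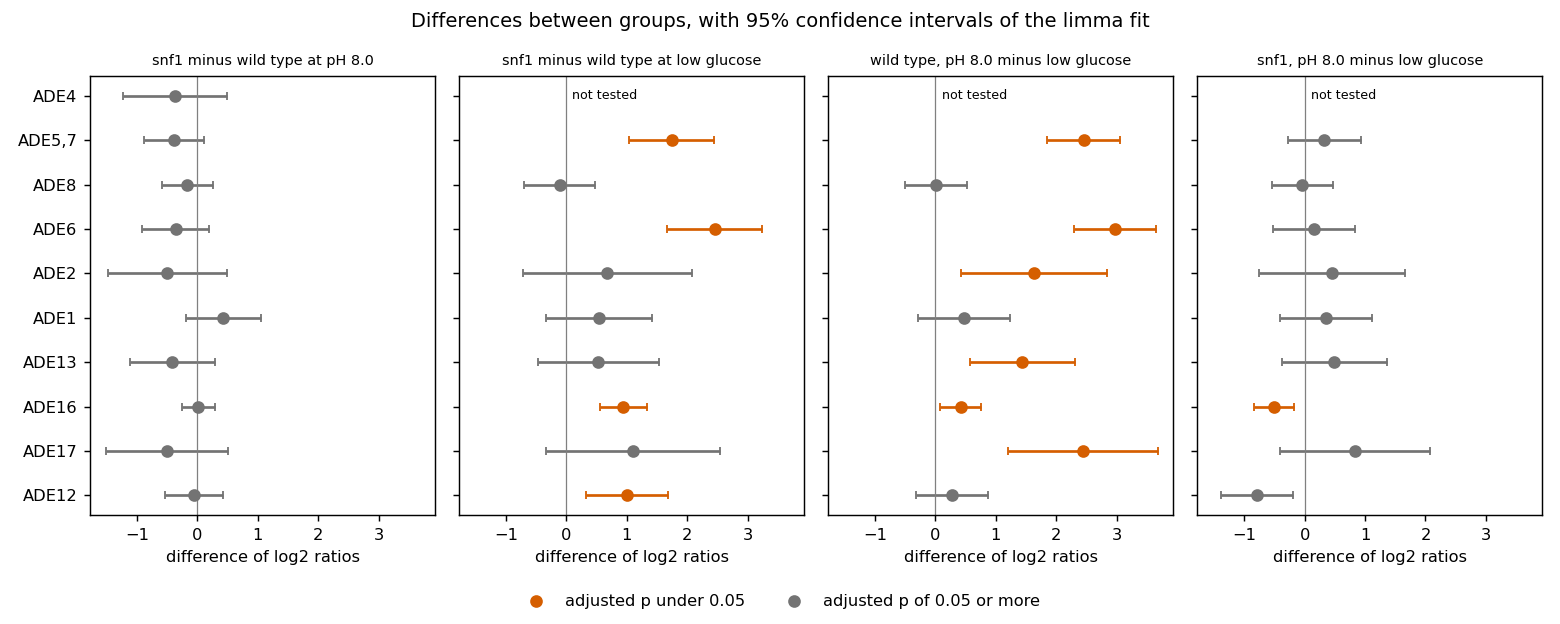
Points are differences of log2 ratios for each purine gene (rows, in pathway order) with 95% confidence intervals from limma, for 4 comparisons, in orange where the adjusted p is under 0.05. ADE6 and ADE5,7 lie far to the right in snf1 minus wild type at low glucose (2.45 and 1.74) and in wild type pH 8.0 minus low glucose (2.97 and 2.46), and no interval at pH 8.0 between the genotypes leaves out 0.

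Within the wild type, most purine genes had higher ratios at pH 8.0 than at low glucose. For pH 8.0 minus low glucose, 6 of 9 genes were called higher and 0 lower, where 20.9% of 4825 genes were called higher and 24.3% lower. The median difference was 1.44 over the purine genes, against -0.14 over all genes. The difference was 2.97 for ADE6, 2.46 for ADE5,7 and 2.44 for ADE17 (adjusted p = 4.75e-05, 7.34e-05 and 0.0057, limma). It was 1.63 for ADE2 (adjusted p = 0.033), 1.44 for ADE13 (adjusted p = 0.0128) and 0.42 for ADE16 (adjusted p = 0.0447). The composition of these differences varied between genes. ADE6 was near 0 at pH 8.0 and at -3.02 at low glucose, ADE2 was at 1.57 at pH 8.0 and near 0 at low glucose, and ADE17 was called in opposite directions. Every array at pH 8.0 lay above both low glucose arrays for 6 of 9 genes, where 26.4% of genes did. The count was 3 without low glucose replicate 1, where 12.8% of genes were called higher, and 2 without low glucose replicate 2, where 11.4% were, with ADE6 and ADE5,7 called each time. It was also 2 (ADE6 and ADE5,7) with the arrays scaled to one spread, where 7.73% of genes were called higher. ADE13 was lost without either low glucose array (adjusted p = 0.0969 and 0.0769) and ADE17 without the second (adjusted p = 0.0564). When single wild type arrays were left out, ADE2 was called only without replicate 3 at pH 8.0 and otherwise had adjusted p-values of 0.0519 to 0.155. ADE16 was called only without replicate 2 at pH 8.0 and otherwise had adjusted p-values of 0.07 to 0.212 (limma). ADE1 was called higher without replicate 2 at pH 8.0 (0.78, adjusted p = 0.0297).

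Within snf1, pH 8.0 minus low glucose gave 1 of 9 genes called lower, ADE16 (-0.51, adjusted p = 0.0427, limma), and 0 higher, where 13.8% of 3290 genes were called lower and 3.34% higher. Both low glucose arrays lay above every array at pH 8.0 for 2 of 9 genes, ADE12 and ADE16, where 28.9% of genes did. ADE12 differed by -0.78 (adjusted p = 0.069). The other 7 genes had estimates of -0.04 to 0.83, with a median of 0.32 over all 9 against -0.14 over all genes. That median was 0.04 without replicate 3 and 0.09 without replicate 4 at pH 8.0, 0.18 without low glucose replicate 2, and 0.30 to 0.44 without any other single snf1 array. The ADE16 call was lost without low glucose replicate 1 (-0.35, adjusted p = 0.395) or 2 (-0.66, adjusted p = 0.0797), and without replicate 1, 3 or 4 at pH 8.0 (adjusted p = 0.105, 0.0516 and 0.0602). ADE12 was called lower without replicate 3 (-0.90, adjusted p = 0.0421) and without replicate 4 (-0.97, adjusted p = 0.0302) at pH 8.0. Without snf1 replicates 1 and 2, 5 of 9 genes were called higher (ADE2, ADE5,7, ADE6, ADE13 and ADE17), where 2.91% of genes were. Without snf1 replicates 3 and 4, 2 were called lower (ADE2 at -0.58 and ADE12 at -1.19), where 16.3% of genes were. The 2 comparisons between treatments and those between genotypes share arrays, so their values are not independent of each other.

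The 41 genes of 7 related lists were set beside the purine genes. The PRPP synthetases supply the sugar on which the ring is built. At pH 8.0, 1 of 5 was called higher and 3 lower in snf1, against 0 higher and 3 lower in the wild type, where 21.7% and 26.2% of all genes in snf1 and 25.6% and 30% in the wild type were called higher and lower. PRS3, the lowest of them in the wild type at pH 8.0, had -0.81 in snf1 and -0.93 in the wild type (adjusted p = 1.51e-05 and 3.48e-06, limma), while most ADE genes were above 0. At low glucose 3 of 5 were called lower in snf1 and 4 of 5 in the wild type, where 16.9% and 31.5% of all genes were. The difference between the genotypes was called higher for 4 of 5, where 27.6% of all genes were.

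The genes of the GMP branch were lower at pH 8.0, unlike the purine genes called there. All 4 genes, the IMP dehydrogenase genes IMD2, IMD3 and IMD4 and the GMP synthase gene GUA1, were called lower in both genotypes, where 26.2% of all genes in snf1 and 30% in the wild type were. IMD2 had -0.74, -0.87, -0.63 and -0.47 on the snf1 arrays at pH 8.0, against -0.64, -0.57, -0.29 and -0.39 on the wild type arrays, so that snf1 replicates 3 and 4 lay above replicates 1 and 2, by 0.26 on average against 2.08 for ADE2. GUA1 averaged -0.97 in snf1 and -0.93 in the wild type. IMD3 averaged -0.71 in snf1 and -0.49 in the wild type, and IMD4 fitted at -0.92 in snf1, where replicate 3 had no value, and at -1.05 in the wild type. At low glucose 2 of 4 were called lower in snf1 and 4 of 4 in the wild type, where 16.9% and 31.5% of all genes were. The difference between the genotypes was called higher for all 4, from 0.98 for GUA1 to 1.31 for IMD3, where 27.6% of all genes were called higher. IMD2 had -0.13 and -0.50 in snf1, against -1.56 and -1.50 in the wild type, and it differed by 1.21 (adjusted p = 0.000696, limma). The IMD genes are close copies of each other, so one spot may pick up RNA of another, and probe sequences were not used here.

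One-carbon units and glycine feed the purine ring at several steps, and most genes of their supply were called higher in the wild type at pH 8.0. In snf1, 0 of 6 tested were called higher and 1 lower, and in the wild type 6 of 8 were called higher and 2 lower, beside 21.7% and 26.2% of all genes in snf1 and 25.6% and 30% in the wild type. MTD1, the gene of a cytoplasmic methylenetetrahydrofolate dehydrogenase, had -0.59, -0.47, 1.90 and 1.98 on the snf1 arrays, against 2.20, 2.29, 1.86 and 1.80 on the wild type arrays. Snf1 replicates 3 and 4 thus lay within the wild type range and replicates 1 and 2 far under it, and snf1 minus wild type was not called by limma over all arrays (-1.33, adjusted p = 0.243). GCV2, a subunit gene of the glycine cleavage complex, averaged 1.94 in the wild type (adjusted p = 2.73e-06) and was not tested in snf1, where only replicates 3 and 4 had a value (1.95 and 1.72). ADE3, which encodes the cytoplasmic enzyme that makes the formyl donor of purine synthesis, had -0.12, -0.15, 0.83 and 0.92 on the snf1 arrays and 0.46, 0.66, 0.44 and 0.50 on the wild type arrays. At low glucose ADE3 had 0.29 and 0.08 in snf1, against -1.30 and -1.11 in the wild type, and it differed between the genotypes by 1.39 (adjusted p = 0.00686, limma). MIS1, its mitochondrial counterpart, averaged -0.82 in snf1 and -2.25 in the wild type at low glucose, with a difference of 1.42 (adjusted p = 6e-04). ADE3 and MIS1 were the 2 of 8 genes of this list called higher in that difference, and 0 were called lower. Of all genes, 27.6% were called higher and 13% lower, so the share was near that of all genes. The median difference was 0.12 over the list and 0.18 over all genes.

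The array pairs of snf1 split by more for some of these lists than for others. Replicates 3 and 4 lay both above replicates 1 and 2 for 5 of 6 one-carbon genes with a median of 1.02, and for 5 of 6 histidine genes with a median of 0.85, beside 24.1% of all genes. They did so for 1 of 3 genes of the GMP branch (median 0.22), 2 of 8 of salvage and uptake (median 0.05) and 0 of 5 PRPP synthetases (median 0.00). Histidine synthesis shares an intermediate with the purine pathway and, in yeast, the activators Bas1 and Gcn4. HIS4, the gene of a histidine enzyme with several activities, had 0.59, 0.60, 2.23 and 2.43 on the snf1 arrays at pH 8.0, against 1.48, 1.54, 1.46 and 1.15 on the wild type arrays. At low glucose HIS4 had 1.73 and 1.98 in snf1, against -0.58 and -0.03 in the wild type, and it differed by 2.16 (adjusted p = 0.00847, limma). HIS7 differed in the same direction by 1.35 (adjusted p = 0.00536). Of the histidine genes, 2 of 6 were called higher in snf1 at pH 8.0 and 2 of 6 higher and 1 lower in the wild type, beside 21.7% and 25.6% of all genes called higher. In the difference at low glucose 3 of 5 were called higher, beside 27.6% of all genes.

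Salvage genes, which recycle or take up ready-made bases and nucleosides, were called lower more often than higher at pH 8.0, and many were not called. In snf1, 1 of 9 was called higher and 5 lower, where 21.7% and 26.2% of all genes were, and in the wild type 1 of 11 was called higher and 4 lower, where 25.6% and 30% were. At low glucose 0 of 11 were called higher and 3 lower in snf1, where 28.9% and 16.9% of all genes were, and 3 higher and 7 lower in the wild type, where 33.7% and 31.5% were. AAH1, the adenine deaminase gene, had -1.62, -1.34, -1.44 and -1.55 on the snf1 arrays at pH 8.0, against -1.24, -1.35, -0.72 and -0.66 on the wild type arrays, with no split between the snf1 pairs. At low glucose it averaged -1.72 in snf1 and -1.53 in the wild type. ISN1, the gene of an IMP-specific nucleotidase, was called higher at pH 8.0 in both genotypes (0.69 in snf1 and 0.85 in the wild type). At low glucose ISN1 had 0.13 and 0.15 in snf1, against 1.20 and 1.20 in the wild type, so it differed by -1.05 (adjusted p = 0.00116, limma). ADO1, the adenosine kinase gene, differed by 1.16 at low glucose (adjusted p = 0.00297), with -0.32 in snf1 and -1.47 in the wild type. In this difference 4 of 11 salvage genes were called higher and 1 lower, where 27.6% and 13% of all genes were. The median difference was 0.24 over the list and 0.18 over all genes. Of the 3 nucleotide kinase genes, 1 was called higher and 2 lower in snf1 at pH 8.0, and 1 higher and 1 lower in each other group. The shares of all genes are those given above for the salvage genes. YNK1 was called higher in all 4 groups, from 0.57 in snf1 at pH 8.0 to 1.41 in the wild type at low glucose. The other kinase genes were lower at pH 8.0, GUK1 at -0.90 in snf1 and -0.85 in the wild type, and ADK1 at -0.50 and -0.39.

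Of the regulator genes at pH 8.0, BAS1 and GCN4 were called lower and PHO2 higher. BAS1 was called lower in both genotypes, at -0.82 in snf1 and -0.84 in the wild type (adjusted p = 0.000523 and 0.000346, limma). At low glucose BAS1 had -1.94 and -1.96 on the wild type arrays (adjusted p = 6.62e-06) and no value in snf1. PHO2 was called higher at pH 8.0, at 0.40 in snf1 and 0.61 in the wild type, and at low glucose it had 0.16 in snf1 and 0.60 in the wild type, a difference of -0.45 (adjusted p = 0.0453). GCN4 at pH 8.0 was at -0.61 in snf1 and -0.81 in the wild type. At low glucose GCN4 had -0.01 and -0.33 in snf1, against -1.12 and -1.21 in the wild type, and it differed by 0.99 (adjusted p = 0.00156, limma). At pH 8.0, snf1 minus wild type called 0 of the 36 tested genes of these 7 lists by limma, where 1.16% of 4380 genes were called. Without adjustment 7 of the 36 had a p under 0.05 (limma). The share of all genes under that unadjusted threshold was not computed, so this count cannot be read as a result about the lists. These are transcript ratios and say nothing of the activity of the proteins.

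**Figure D4:**
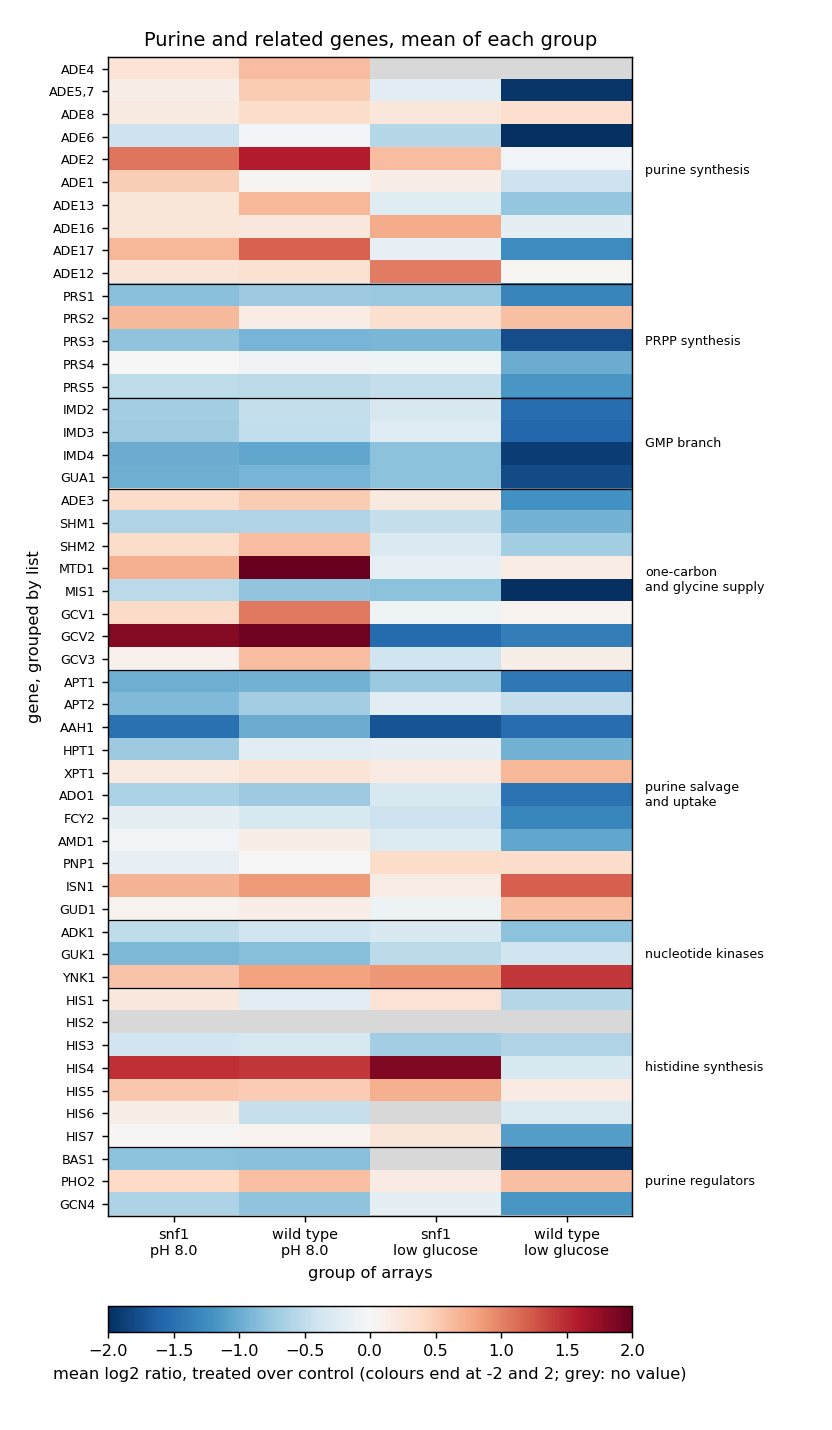
Colours give the mean log2 ratio of treated over control for each purine gene and each gene of the 7 related lists (rows) in each group of arrays (columns), with red above 0, blue below 0 and grey where no value was present. The GMP branch is blue in all 4 groups, while ADE2, ADE17 and MTD1 are red at pH 8.0 (1.57, 1.17 and 2.04 in the wild type) and ADE6 is dark blue only in the wild type at low glucose (-3.02).

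The purine genes resembled each other in part only. Over the 36 pairs of the 9 genes with complete values, Pearson coefficients over the 12 arrays ran from -0.36 to 0.98 with a median of 0.44. Against the median of the other genes the coefficient was 0.95 for ADE2, 0.94 for ADE17, 0.90 for ADE13, 0.86 for ADE5,7 and 0.84 for ADE6. It was 0.46 for ADE8, 0.40 for ADE12, 0.28 for ADE16 and 0.22 for ADE1. The 12 arrays fall into 4 groups, so these values mostly describe the contrast between groups and between the snf1 pairs.

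Outside the lists, the genes most like the purine profile, the median over the 9 genes on each array, were ERG10 (Pearson 0.944), SER3 (0.943), MCA1 (0.940), PTC2 (0.934) and MSS11 (0.928), over 12 arrays and 2939 genes with complete values. The median coefficient of all these genes was -0.03, and 0.306% exceeded 0.9. SER3, which encodes an enzyme of serine synthesis, averaged 1.40 in snf1 and 2.04 in the wild type at pH 8.0, and 0.94 in snf1 and -0.81 in the wild type at low glucose. The coefficient ignores level and size of change. ERG10 averaged -0.27 in snf1 and -0.22 in the wild type at pH 8.0, and -0.25 and -0.54 at low glucose. PTC2 was likewise below 0 in all 4 groups, while MCA1 and MSS11 were above 0 at pH 8.0. By Spearman's coefficient the 5 most alike genes were ACC1, YHR182C-a, TOH1, ASN2 and MID2, and 0 of them were among the 5 by Pearson's.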

How the data were processed

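The deposited values are log ratios per gene and array, taken here as log2. The sources used here give neither the base, the direction nor the normalization. No further normalization was applied, since the median of each array was near 0. Per the labels' protocols, 8 µg of total RNA was labelled indirectly with oligo(dT) priming, and the authors left out spots under 120 µm or under 100 units. Systematic names were matched to the RefSeq R64 annotation, which matched 5639 rows and all 51 listed genes. Of these, 50 had a value.

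One model per gene over the 12 arrays held 4 group means and a dye term, so that groups share an estimate of the spread (limma 3.58.1 under R 4.3.3, functions lmFit and eBayes). The 8 comparisons were two-sided, p-values were adjusted over the genes tested (Benjamini-Hochberg) and genes were called under 0.05. A gene was tested with a value on at least 3 of 4 arrays at pH 8.0 or both arrays at low glucose. Medians over a list are descriptions without a test. The number of arrays limits the precision.

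The members and lists were chosen with earlier results of these data known. Named are all purine genes, up to 3 called genes of each related list with the largest change, BAS1, PHO2, GCN4, ADE3, IMD2, IMD3, IMD4 and MTD1 in any case, and the 5 genes most like the purine profile. SUC2 and HXT7 are named only beside the genotype label. GUA1, PRS3, HIS7, ISN1, YNK1 and AAH1 fall under this rule in at least 1 comparison. The scripts were tested on simulated data. Alternatives were no dye term, other scalings, other filters, only the arrays compared, robust eBayes, consecutive arrays as a random block or averaged, a replicate block, and arrays left out. For a single group, only the arrays compared means both genotypes of its treatment.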

Additional observations from a re-analysis of the deposited data

Results flagged for a closer look

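The effect on 11 gene and comparison pairs differed between groups by limma's test of the difference itself, adjusted over all genes tested. At low glucose, snf1 minus wild type was 2.45 for ADE6, 1.74 for ADE5,7, 1.00 for ADE12 and 0.94 for ADE16, each with both snf1 arrays above both wild type arrays. Of 3651 genes, 27.6% were called higher in this comparison and 45.6% had both snf1 arrays above both wild type arrays. Only ADE16 kept its call with the arrays scaled to one spread. Within the wild type, pH 8.0 minus low glucose was 2.97 for ADE6, 2.46 for ADE5,7, 2.44 for ADE17, 1.63 for ADE2, 1.44 for ADE13 and 0.42 for ADE16, each with all 4 arrays at pH 8.0 above both low glucose arrays. Here 20.9% of 4825 genes were called higher, and 26.4% of 4458 genes with complete values did not overlap in that direction. Only ADE6 and ADE5,7 kept their calls with the arrays scaled to one spread. Within snf1, pH 8.0 minus low glucose was -0.51 for ADE16, where 13.8% of 3290 genes were called lower. The strain label also differs between the treatments, so strain and treatment cannot be told apart in the comparisons of pH 8.0 with low glucose. No single array stood out in a group of 4 by a gap test at the 95% level, run where a gene had all 4 values. ADE4 in the wild type was thus not covered. The test looks for 1 array apart from the rest, so it cannot flag the split of the snf1 arrays into pairs.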

How the results depend on the processing

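Of 1146 results on single purine genes under alternatives, 944 kept direction and side of the threshold, 106 lost a call, 41 gained one, 53 without a call moved, and 2 reversed: ADE13 in snf1 at pH 8.0 (0.25, and -0.43 without replicates 3 and 4) and ADE2 in snf1 for pH 8.0 minus low glucose (0.46, and -0.58 without them). Counts of purine genes called, with all arrays first, depended on the setting as follows. With only the arrays compared, a single group kept both genotypes of its treatment, so fewer arrays shared the spread. The counts were then 1 instead of 2 in snf1 and 3 instead of 6 in the wild type at pH 8.0. The wild type fit thus still held the split snf1 arrays. Of all genes, 44.9% and 51.9% were then called, instead of 48% and 55.6%. At low glucose they were 4 (ADE6 lower, the others higher) instead of 2 in snf1. They were 6 (ADE8 higher, the others lower) instead of 3 in the wild type, and 8 instead of 4 for snf1 minus wild type. The shares of all genes called at low glucose rose too. They were 55.7% instead of 45.8% in snf1, 73.5% instead of 65.2% in the wild type and 52.9% instead of 40.6% for the difference. With consecutive arrays averaged, they were 0 in snf1 and 0 in the wild type at pH 8.0, where 27.1% and 33.3% of all genes were called. This setting leaves 1 value per low glucose group, so counts that involve low glucose are not given for it. With consecutive arrays as a random block (mean correlation 0.2774) the count in snf1 at pH 8.0 was 1, where 40.2% of all genes were called. With arrays scaled to one spread the count was 1 for snf1 minus wild type at low glucose and 2 for wild type pH 8.0 minus low glucose. In these comparisons 13.4% and 12.5% of all genes were then called in either direction. The single call of snf1 pH 8.0 minus low glucose was 0 without the dye term, with scaling, with medians subtracted, without the filter, with only the arrays compared, with the random block and with averaged arrays. In the fits added after the data were seen, leaving out replicates 1 and 2 gave 7 in snf1 and 1 in the wild type at pH 8.0 and 5 for snf1 pH 8.0 minus low glucose. Leaving out replicates 3 and 4 gave 3 in the wild type at pH 8.0, 2 for snf1 pH 8.0 minus low glucose and 6 for snf1 minus wild type at pH 8.0. Leaving out 1 array gave counts of 1 to 4 in snf1 and 1 to 4 in the wild type at pH 8.0, 1 to 2 in snf1 and 2 in the wild type at low glucose, 0 for snf1 minus wild type at pH 8.0, 3 at low glucose, 2 to 6 for wild type and 0 to 1 for snf1 pH 8.0 minus low glucose.

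The median over purine genes was 0.27 instead of -0.36 for snf1 minus wild type at pH 8.0 without snf1 replicates 1 and 2, and -0.36 instead of 0.32 for snf1 pH 8.0 minus low glucose without replicates 3 and 4. In the wild type at low glucose (-0.41) it was -0.26 with scaling, -0.47 with medians subtracted and -0.45 to -0.36 without 1 array. For wild type pH 8.0 minus low glucose (1.44) it was 1.19 with scaling, 1.23 without replicates 1 and 2 and 1.65 without replicates 3 and 4. Where a cause is not stated, the cause was not tested. Same-numbered arrays of the genotypes correlated in their deviations at -0.386 to 0.0701 at pH 8.0, so the numbers are not taken as pairs there. At low glucose the correlation was 0.287, which with 2 arrays a group is a single value mirrored between the numbers and decides nothing, and the labels state no pairing. With the replicate block, 0 purine genes were called between the genotypes at pH 8.0, where 1.14% of all genes were. At low glucose 3 were called instead of 4, where 37.2% of all genes were. ADE12 had an adjusted p of 0.0589 (limma), and ADE6, ADE5,7 and ADE16 kept their calls. ADE4 gave no value at low glucose under any setting.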
